A study of Mus musculus with 4 samples.

Results

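The transcripts described here belong to 35 genes that respond to low oxygen or run glycolysis, out of 31053 genes counted in every library. They were taken by symbol and not by a cut on their levels, but the list was chosen with earlier results of these data known. Aldoa named 2 rows, and the row that was not used held 0 UMIs. By role they comprise 13 glycolytic enzymes (Hk1, Hk2, Gpi1, Pfkl, Pfkp, Aldoa, Tpi1, Gapdh, Pgk1, Pgam1, Eno1, Pkm and Ldha), 2 transporters (Slc2a1 and Slc16a3), 3 regulators of glycolytic flux (Pfkfb3, Pfkfb4 and Pdk1), 3 genes of oxygen sensing (Hif1a, Egln1 and Egln3) and 14 other hypoxia targets (Hilpda, Ankrd37, Fam162a, Bnip3, Bnip3l, Ero1l, Vegfa, Adm, Ndrg1, P4ha1, Mif, Car9, Higd1a and Ddit4).

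When oxygen is scarce, the prolyl hydroxylases encoded by the Egln genes mark the alpha subunit of hypoxia-inducible factor less for destruction, and the factor accumulates and activates genes that hold its short DNA motif. Its targets include nearly every enzyme of glycolysis, the glucose importer, and genes that slow mitochondrial respiration, coat lipid droplets or signal to vessels. In macrophages and neutrophils the same factor is also raised by inflammatory signals when oxygen is ample, and both cell types rely heavily on glycolysis.

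The 4 libraries hold single immune cells that had infiltrated brain tumours of C57BL/6 mice, taken when the animals were symptomatic, from a genetically engineered glioma model. In 2 libraries the tumour expressed wild-type isocitrate dehydrogenase 1 (wtIDH1) and in 2 the mutant enzyme (mIDH1), whose product is D-2-hydroxyglutarate. Both genotypes therefore come from tumours, and no normal tissue is part of the comparison. The promoter of the transgene, the other alleles of the model, the age and number of animals, and the sort that selected immune cells are not given in the sources used here. Nothing in the labels ties the libraries of a genotype to separate animals, so p-values measure only the spread between these libraries, which may be technical.

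The libraries held 3701 to 4708 barcodes and 20908476 to 29849183 UMIs each, and 13123 of 16289 barcodes were kept. Per library, median depth was 4948 and 4864 UMIs a cell in wtIDH1 and 3350 and 2692.5 in mIDH1. Pairs of libraries shared 6 to 25 barcodes. Cells were gated into classes by marker genes, none of them a member, which left 2150 cells unassigned. As the gate requires markers, their presence is no independent check of the names: all 12 macrophage markers were read in macrophage-like cells, all 12 neutrophil markers in neutrophil-like cells, and all 8 microglia markers in microglia-like cells of every library. The numbers of cells in wtIDH1 replicates 1 and 2 and mIDH1 replicates 1 and 2, the order used throughout, were 691, 945, 735 and 394 for macrophage-like, 736, 425, 308 and 359 for monocyte-like, and 99, 158, 908 and 1684 for neutrophil-like cells.

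In every class tested below but T cell-like cells, the 35 genes took a larger share of RNA in both mIDH1 than both wtIDH1 libraries. Together the 35 genes took 1.17% and 0.963% of all UMIs of macrophage-like cells in wtIDH1 and 1.89% and 2.04% in mIDH1. Monocyte-like cells gave 1.13% and 1.09% in wtIDH1 and 1.57% and 1.62% in mIDH1. Neutrophil-like cells gave 1.13% and 1.10% in wtIDH1 and 1.65% and 1.53% in mIDH1. The gap between the genotypes was widest in macrophage-like cells among these 3 classes.

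In the other classes the wtIDH1 shares were lower. Microglia-like cells gave 0.809%, 0.681%, 0.831% and 0.981%, and type 2 conventional dendritic (cDC2-like) cells gave 0.881%, 0.806%, 1.45% and 1.07%. T cell-like cells gave 0.773%, 0.662%, 0.828% and 0.729%, where the genotypes overlapped. Natural killer (NK) cell-like cells had the smallest share of these classes, 0.309%, 0.339%, 0.381% and 0.482%. cDC2-like cells were not tested gene by gene, since mIDH1 replicate 2 held only 28 of them. Among other untested classes the genotypes overlapped in mature dendritic-like cells (0.564%, 0.367%, 0.499% and 0.573%). They also overlapped in plasmacytoid dendritic-like cells (0.315%, 0.372%, 0.433% and 0.341%), of which there were only 10, 20, 13 and 12. Mast or basophil-like cells gave 0.941%, 0.961%, 1.16% and 0.634%, on 3, 1, 47 and 23 cells, so overlap cannot be judged there. B cell-like cells gave 0.210%, 0.336%, 0.424% and 0.362%, on 11, 16, 25 and 13 cells, too few to set the genotypes apart.

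**Figure D1:**
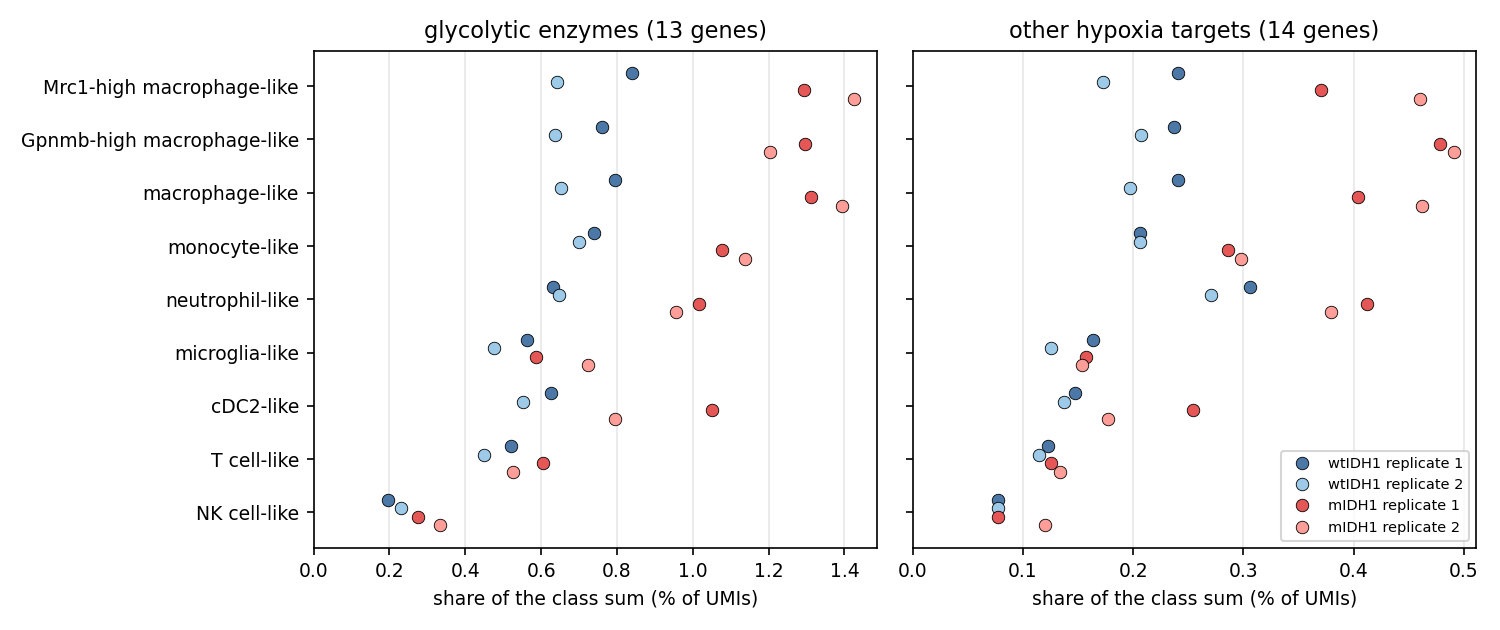
Share of all UMIs of a class taken by the 13 glycolytic enzymes and by the 14 other hypoxia targets, in percent, for each class and library. Each point is 1 library; in macrophage-like cells the enzymes took 0.794% and 0.653% in wtIDH1 and 1.31% and 1.39% in mIDH1.

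For each class the UMIs of a library's cells were added up, and mIDH1 was compared with wtIDH1 by edgeR's quasi-likelihood test with Benjamini-Hochberg adjustment over all genes tested. A gene is said to rise or fall where its adjusted p was under 0.05. Shares of all genes are given for these calls. Counts at an unadjusted p under 0.05, and counts from DESeq2 and the other alternatives, have no such share beside them. Those counts do not show how far the members differed from other genes. Levels are given as CPM, the gene's share of the UMIs of the class on the usual scale. The log2 fold changes follow trimmed-mean scaling and are larger than the ratio of the CPM values, because library totals alone put the median of all genes 0.28 below 0 in macrophage-like cells. With 2 libraries against 2, no exact permutation test can give a p under 0.333, so these p-values rest on the variance model.

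In macrophage-like cells 30 of the 35 members rose in mIDH1 and 0 fell, where 6.4% of the 10951 genes tested rose and 1.97% fell (8.37% in either direction). The members' median log2 fold change was 1.06 and that of all genes −0.02. In CPM, 32 of 35 members had both mIDH1 libraries above both wtIDH1 libraries, against 15.7% of all genes tested. Hif1a and Car9 had both below, as had 51.4% of all genes. None of the 35 was lower at an unadjusted p under 0.05, and DESeq2 called 30 higher and 0 lower. Without mIDH1 replicate 2, edgeR called 5 higher (Hilpda, Ankrd37, Fam162a, Egln3 and Adm), with all 30 in the same direction.

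All 13 glycolytic enzymes rose in macrophage-like cells, with log2 fold changes from 0.83 (Pfkp) to 1.67 (Eno1) and a median of 1.05. Eno1, the enolase that forms phosphoenolpyruvate, lies on chromosome 4 from 150236721 to 150248879 (mm10, plus strand). It stood at 367 and 275 CPM in wtIDH1 and at 744 and 953 CPM in mIDH1, a log2 fold change of 1.67 (SE 0.24, edgeR adjusted p = 0.00702). Both mIDH1 libraries lay well above both wtIDH1 libraries.

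Gapdh, the dehydrogenase of the glycolytic payoff phase, stood at 2100 and 1679 CPM in wtIDH1 and 3894 and 4294 CPM in mIDH1 (log2 fold change 1.38, SE 0.21, edgeR adjusted p = 0.00994). Ldha, which turns pyruvate into lactate, stood at 655 and 576 CPM against 1168 and 1288 CPM (1.26, SE 0.19, edgeR adjusted p = 0.00935). Neither gene's libraries overlapped between genotypes.

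The remaining enzymes rose by smaller steps. The hexokinases that trap glucose in the cell had log2 fold changes of 1.02 for Hk1 and 0.84 for Hk2. The isomerase Gpi1 had 1.07, the phosphofructokinase genes Pfkl and Pfkp 1.06 and 0.83, the aldolase gene Aldoa 1.05 and the triose phosphate isomerase gene Tpi1 1.14. Downstream, the kinase gene Pgk1 had 0.92, the mutase gene Pgam1 0.95 and the pyruvate kinase gene Pkm 0.98. Scaled by library totals alone, Hk2, Pfkp and Pkm no longer passed the test, with the same direction. Several of these enzymes have processed pseudogenes, and how reads shared with such copies were assigned is not given in the sources used here.

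Both transporters rose in macrophage-like cells. Slc2a1, the glucose importer GLUT1, stood at 172 and 111 CPM in wtIDH1 and 323 and 405 CPM in mIDH1 (log2 fold change 1.62, SE 0.26, edgeR adjusted p = 0.0104). Slc16a3, the lactate exporter MCT4, stood at 245 and 164 CPM against 358 and 353 CPM (1.06, SE 0.22, edgeR adjusted p = 0.0259). The genotypes did not overlap for either transporter.

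Of the 3 flux regulators only Pdk1 passed. Pdk1, the kinase that keeps pyruvate out of mitochondria, stood at 41.9 and 44.2 CPM in wtIDH1 and at 67.1 and 61.9 CPM in mIDH1 (log2 fold change 0.84, SE 0.15, edgeR adjusted p = 0.0142). The bifunctional enzyme genes that set fructose 2,6-bisphosphate were Pfkfb3, with a log2 fold change of 0.75 and an adjusted p of 0.113, and Pfkfb4, with 0.66 and 0.0526, both from edgeR. Pdk1 was lost under library totals alone (0.58). For Pfkfb3 the lowest mIDH1 library (79.0 CPM) was only just above the highest wtIDH1 library (76.3 CPM).

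The oxygen-sensing genes split. Hif1a encodes the alpha subunit of the factor, which is controlled mainly by the stability of the protein. Its transcript stood at 609 and 605 CPM in wtIDH1 and 494 and 472 CPM in mIDH1, and after scaling the log2 fold change was −0.07 (SE 0.17, edgeR adjusted p = 0.836). With classes taken from clusters in place of gates its log2 fold change was 0.11. The hydroxylases, which the factor itself induces, both rose. Egln3 stood at 60.7 and 38.2 CPM in wtIDH1 and 202 and 207 CPM in mIDH1 (2.31, SE 0.24, edgeR adjusted p = 0.00275), and Egln1 had a log2 fold change of 1.11 (adjusted p = 0.0113).

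Of the 14 other targets 12 rose in macrophage-like cells, with a median log2 fold change of 1.40 over the 14. Hilpda, which coats lipid droplets and blocks their breakdown, lies on chromosome 6 from 29272488 to 29275446 (mm10, plus strand). It stood at 93.1 and 91.4 CPM in wtIDH1 and 426 and 521 CPM in mIDH1 (2.63, SE 0.20, edgeR adjusted p = 0.0012). Ankrd37, an ankyrin repeat gene, stood at 12.3 and 10.5 CPM against 59.3 and 64.2 CPM (2.70, SE 0.19, edgeR adjusted p = 0.000873). In both genes the libraries of a genotype lay close together and far from the other genotype.

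Adm, the precursor of the vasodilator peptide adrenomedullin, had the highest fold change of the members on the lowest counts of those that rose. Its 20 and 54 UMIs in wtIDH1 and 228 and 161 UMIs in mIDH1 correspond to 2.97, 6.03, 31.4 and 47.0 CPM (3.33, SE 0.34, edgeR adjusted p = 0.00255). Ndrg1, a stress-response gene, stood at 72.5 and 34.8 CPM against 237 and 276 CPM (2.52, SE 0.33, edgeR adjusted p = 0.00504). In both genes the wtIDH1 libraries differed widely from each other and stayed below both mIDH1 libraries.

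Fam162a, a mitochondrial protein gene, stood at 54.9 and 53.6 CPM in wtIDH1 and 158 and 186 CPM in mIDH1 (log2 fold change 1.93, SE 0.18, edgeR adjusted p = 0.00184). Ero1l, the oxidase that drives disulfide formation in the endoplasmic reticulum, stood at 171 and 121 CPM against 367 and 529 CPM (1.89, SE 0.27, edgeR adjusted p = 0.00698). The genotypes were apart in both genes.

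The stress gene Ddit4, which restrains mTOR signalling, had a log2 fold change of 1.48 and the mitochondrial Higd1a one of 1.32. The mitophagy receptors Bnip3 and Bnip3l had 1.10 and 0.68, the cytokine Mif 0.93 and the collagen prolyl hydroxylase subunit P4ha1 0.66. Bnip3l and P4ha1 were the nearest to the threshold (edgeR adjusted p = 0.0456 and 0.0485) and were lost under library totals alone.

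Vegfa and Car9 did not pass. Vegfa, the growth factor of blood vessels, stood at 319 and 195 CPM in wtIDH1 and 284 and 364 CPM in mIDH1, so the genotypes overlapped (log2 fold change 0.60, SE 0.27, edgeR adjusted p = 0.201). Car9, a carbonic anhydrase, was read at 4.90, 6.25, 4.27 and 2.33 CPM.

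**Figure D2:**
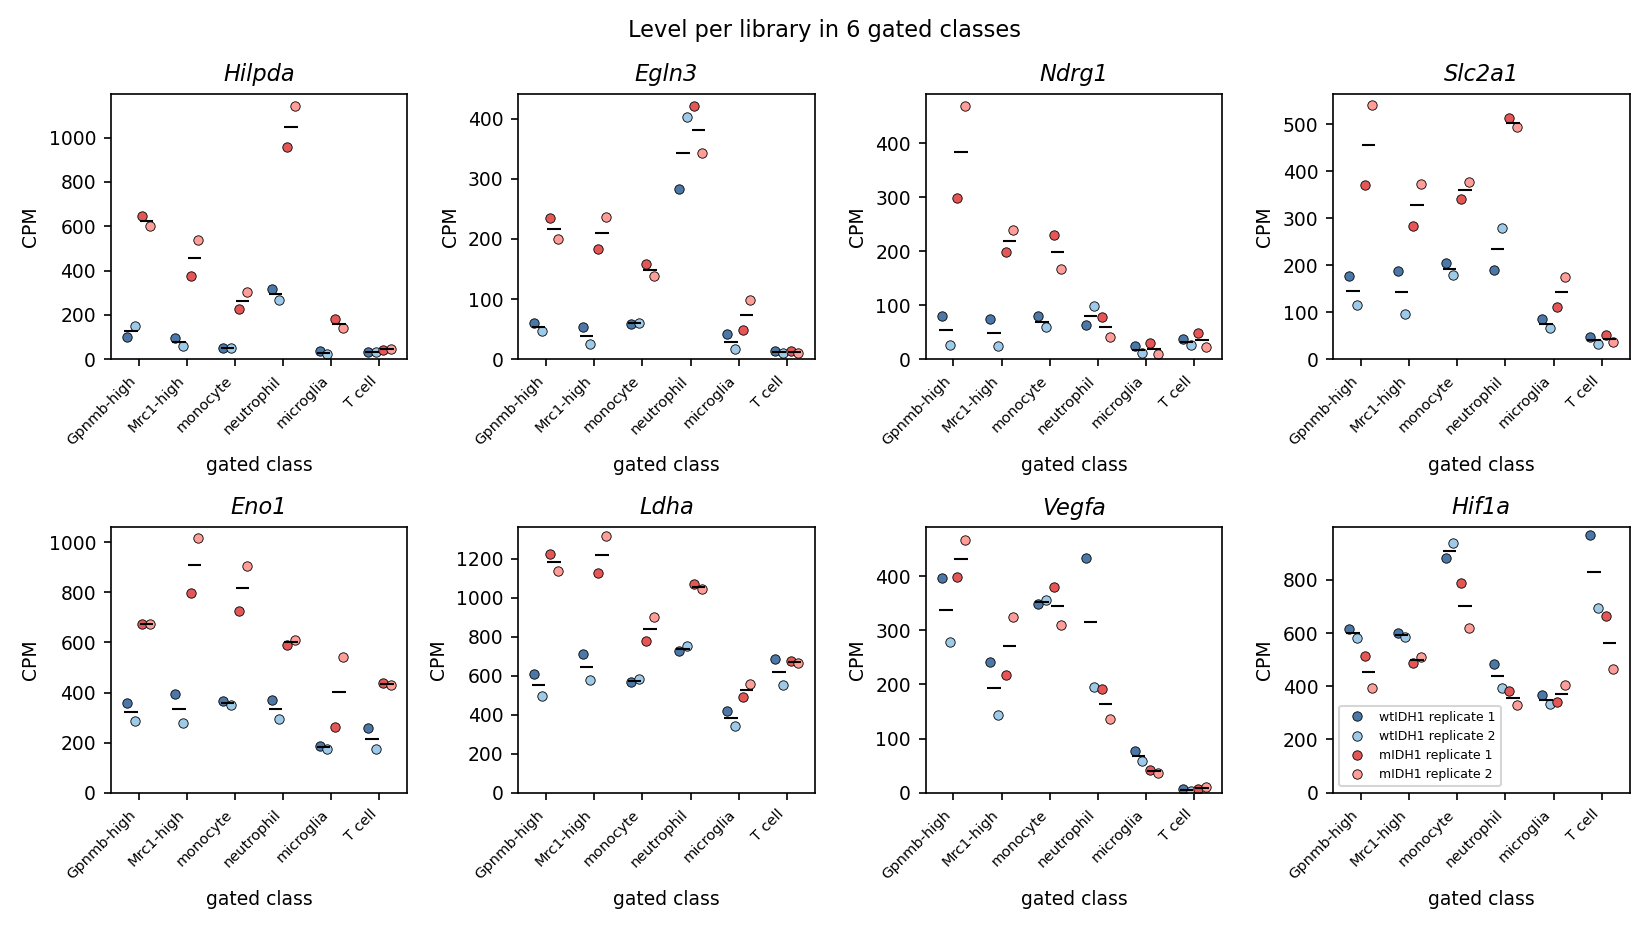
Levels in CPM of Hilpda, Egln3, Ndrg1, Slc2a1, Eno1, Ldha, Vegfa and Hif1a in 6 classes; points are libraries and bars are the means of the 2 libraries of a genotype. Drawn are Gpnmb-high and Mrc1-high macrophage-like, monocyte-like, neutrophil-like, microglia-like and T cell-like cells. Macrophage-like cells as a whole are not drawn. In that whole class Hilpda stood at 93.1 and 91.4 CPM in wtIDH1 and 426 and 521 CPM in mIDH1, while the genotypes overlapped for Vegfa.

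The promoters of the members were searched for the core motif of the hypoxia-inducible factor, since so many members moved together. RefSeq windows on GRCm38.p6 of 300 bases, 250 before and 50 after the transcription start, were matched by symbol for 33 of the 35 members, Bnip3l and Ndrg1 being the others. The motif searched was ACGTG or GCGTG on either strand, so its reverse complements CACGT and CACGC count as well, and overlapping matches count separately. At least 1 match stood in a window of 31 of the 33 members (93.9%), where 46.7% of 27025 genes had one. By window the shares were 84.1% of 44 member windows and 43.8% of 32851 windows in all. Gpi1 and Tpi1 held none. The members were listed for their response to low oxygen or their part in glycolysis. The other genes were not matched to them for the base content of their windows, so the contrast of shares is no test. A match describes these letters only and is not evidence of binding. The 250 bases before the start are shown for 4 members with log2 fold changes of 1.93 or more in macrophage-like cells, for Pgk1 as an enzyme gene with matches, and for Tpi1, which holds no match; capitals mark the matches.
Hilpda, chr6:29272376-29272625, plus strand: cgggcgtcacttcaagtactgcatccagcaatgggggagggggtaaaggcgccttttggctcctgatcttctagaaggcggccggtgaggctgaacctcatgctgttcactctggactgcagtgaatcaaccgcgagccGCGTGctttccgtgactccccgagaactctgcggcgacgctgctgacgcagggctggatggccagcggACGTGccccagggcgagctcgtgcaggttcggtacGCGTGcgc
Ankrd37, chr8:45999851-46000100, minus strand: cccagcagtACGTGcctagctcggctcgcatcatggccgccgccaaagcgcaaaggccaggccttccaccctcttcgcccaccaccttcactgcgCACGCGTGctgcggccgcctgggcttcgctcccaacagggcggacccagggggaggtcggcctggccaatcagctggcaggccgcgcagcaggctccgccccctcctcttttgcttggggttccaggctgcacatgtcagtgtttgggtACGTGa
Fam162a, chr16:36071562-36071811, minus strand: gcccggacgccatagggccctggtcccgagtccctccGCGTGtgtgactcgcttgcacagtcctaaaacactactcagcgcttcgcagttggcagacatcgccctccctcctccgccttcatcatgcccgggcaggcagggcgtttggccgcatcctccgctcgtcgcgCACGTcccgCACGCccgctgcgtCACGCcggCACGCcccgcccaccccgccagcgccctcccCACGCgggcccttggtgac
Egln3, chr12:54203875-54204124, minus strand: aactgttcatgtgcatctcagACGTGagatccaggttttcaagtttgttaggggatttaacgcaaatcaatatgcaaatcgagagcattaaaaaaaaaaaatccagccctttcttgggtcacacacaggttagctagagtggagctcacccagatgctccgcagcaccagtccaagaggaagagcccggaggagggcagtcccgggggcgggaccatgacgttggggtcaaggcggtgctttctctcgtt
Pgk1, chrX:106186850-106187099, plus strand: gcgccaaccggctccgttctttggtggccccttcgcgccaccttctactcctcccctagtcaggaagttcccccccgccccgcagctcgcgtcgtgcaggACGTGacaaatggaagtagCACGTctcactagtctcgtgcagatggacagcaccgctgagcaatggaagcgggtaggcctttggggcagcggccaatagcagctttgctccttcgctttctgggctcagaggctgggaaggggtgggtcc
Tpi1, chr6:124814159-124814408, minus strand: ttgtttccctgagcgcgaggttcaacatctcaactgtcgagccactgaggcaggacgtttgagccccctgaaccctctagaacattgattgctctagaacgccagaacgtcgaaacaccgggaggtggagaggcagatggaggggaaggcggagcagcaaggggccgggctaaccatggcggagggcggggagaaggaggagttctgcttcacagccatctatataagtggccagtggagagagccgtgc
Hilpda has 2 RefSeq windows, and the one with more matches is shown. The other, chr6:29272238-29272537, holds 1 match, which begins 27 bases after its own start. Counted back from the start of the window shown, the matches of Hilpda begin 111, 43 and 8 bases before it, the middle one of the ACGTG form. That start follows base 29272625 and so lies inside the gene span given above, which begins at 29272488. Ankrd37 holds 4 matches, of which those 155 and 152 bases before the start overlap in the run CACGCGTG. Fam162a holds 6, Pgk1 2 and Egln3 1, the last 229 bases before the start. The number of matches did not follow the fold change among these genes: Egln3 with 1 match had a log2 fold change of 2.31 and Fam162a with 6 had 1.93.

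Of 61 further genes of the pathway, 46 were tested in macrophage-like cells, and 15 rose and 1 fell. Among those with the lowest p were Anxa2, a membrane-binding annexin (log2 fold change 2.11), Ak4, a mitochondrial adenylate kinase (2.13), Mxi1, an antagonist of Myc (1.32), and Pgf, a placental relative of Vegfa (3.06). Pgf differed widely within mIDH1, at 23.4 and 68.6 CPM, against 8.91 and 4.35 CPM in wtIDH1. The gene that fell was Hmox1, heme oxygenase 1, at 1234 and 1305 CPM in wtIDH1 and 525 and 475 CPM in mIDH1 (−1.08, SE 0.17, edgeR adjusted p = 0.0106). In neutrophil-like cells edgeR called 0 of 31 tested genes of this list (4 higher and 3 lower at an unadjusted p under 0.05), and DESeq2 was not run on the list.

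Macrophage-like cells were then parted by their reads of Gpnmb, a glycoprotein of lipid-laden macrophages, and Mrc1, the mannose receptor. A cell with 2 or more UMIs of one of them and more of it than of the other was called Gpnmb-high or Mrc1-high. Gpnmb-high cells numbered 204, 177, 124 and 64, and Mrc1-high cells 125, 281, 265 and 157. The second marker of each pair did not follow in full. Adamdec1 stood at 23.2, 102, 28.4 and 0 CPM in Gpnmb-high cells and at 127, 442, 9.54 and 0.503 CPM in Mrc1-high cells, so it was not a mark of the Gpnmb-high cells here. Pf4 stood at 687, 852, 1110 and 273 CPM in Gpnmb-high and at 979, 880, 3026 and 3135 CPM in Mrc1-high cells.

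The call between genotypes was repeated in each subset. In Gpnmb-high cells 19 of 35 rose and 0 fell (0 lower at an unadjusted p under 0.05, 32 higher), where 2.31% of 9178 genes rose and 0.381% fell (2.69% in either direction). In Mrc1-high cells 24 of 35 rose and 0 fell (0 lower and 33 higher unadjusted), where 4.69% of 9936 genes rose and 1.57% fell (6.26% in either direction). The libraries of the genotypes did not overlap, with mIDH1 higher, for 31 members in Gpnmb-high cells (13.4% of all genes) and 32 in Mrc1-high cells (16% of all genes). They did so with mIDH1 lower for 1 member (47.2% of all genes) and 2 members (48.6% of all genes). DESeq2 called 24 and 23 higher and 0 lower in these subsets. The median log2 fold changes of the members were 1.12 and 1.18. Without mIDH1 replicate 2 edgeR called 5 in Gpnmb-high and 8 in Mrc1-high cells, and without wtIDH1 replicate 2 it called 6 in Mrc1-high cells. With subsets taken from clusters it called 0 in Gpnmb-high and 6 in Mrc1-high cells, and library totals alone gave 11 and 15. The share of UMIs of the 35 genes was 1.13%, 0.957%, 1.95% and 1.87% in Gpnmb-high and 1.22%, 0.92%, 1.83% and 2.08% in Mrc1-high cells.

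By role, 6 of 13 enzymes rose in Gpnmb-high cells and 10 of 13 in Mrc1-high cells, and 10 and 9 of the 14 other targets. Among the enzymes, Gapdh stood at 1908, 1510, 3837 and 3738 CPM in Gpnmb-high cells (log2 fold change 1.44, SE 0.26, edgeR adjusted p = 0.0232) and at 2333, 1751, 3798 and 4273 CPM in Mrc1-high cells (1.24, SE 0.22, adjusted p = 0.0234). Hk2 stood at 417, 412, 648 and 731 CPM in the former (1.03, edgeR adjusted p = 0.0442) and at 385, 384, 484 and 602 CPM in the latter (0.76, adjusted p = 0.0627). In both enzymes the mIDH1 libraries lay above the wtIDH1 libraries of the same subset.

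The glucose importer gene Slc2a1 stood at 176, 115, 370 and 540 CPM in Gpnmb-high cells (1.94, SE 0.30, edgeR adjusted p = 0.0136) and at 188, 96.6, 284 and 373 CPM in Mrc1-high cells (1.48, SE 0.33, adjusted p = 0.0447). The hydroxylase gene Egln3 stood at 60.8, 47.6, 234 and 199 CPM (2.28, SE 0.21, edgeR adjusted p = 0.00144) and at 53.3, 24.8, 182 and 236 CPM (2.73, SE 0.36, adjusted p = 0.0124). Neither gene overlapped between genotypes in either subset.

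The lipid droplet gene Hilpda stood at 102, 148, 648 and 599 CPM in Gpnmb-high cells (2.61, SE 0.25, edgeR adjusted p = 0.00148) and at 94.7, 60.1, 375 and 540 CPM in Mrc1-high cells (2.84, SE 0.31, adjusted p = 0.00791). Ndrg1 stood at 79.7, 27.1, 299 and 469 CPM (3.13, SE 0.46, edgeR adjusted p = 0.0105) and at 74.0, 24.4, 199 and 239 CPM (2.47, SE 0.46, adjusted p = 0.0261). Its wtIDH1 libraries differed from each other in both subsets by more than those of Hilpda, and still lay below mIDH1. Hif1a had log2 fold changes of −0.11 and 0.01 and Vegfa of 0.65 and 0.76, and neither passed in either subset. The neutrophil markers summed to 402, 413, 1534 and 5217 CPM in Gpnmb-high macrophage-like cells and to 582, 429, 1700 and 2720 CPM in Mrc1-high macrophage-like cells. Neutrophil RNA was estimated at 0.755%, 0.765%, 2.475% and 3.819% of UMIs in the former. In the latter it was 1.094%, 0.795%, 2.744% and 1.991%. Fits with this RNA subtracted were run in both subsets, but their values gene by gene are not reported here.

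The subsets were also compared with each other within the libraries. With the library as a block, 7 members were higher in Gpnmb-high than in Mrc1-high cells and 1 was lower, where 5.01% of 9865 genes were higher and 3.86% lower (8.87% in either direction). Scaled by library totals alone, 2 were higher and 1 lower. Vegfa stood at 397, 278, 398 and 468 CPM in Gpnmb-high cells and at 242, 144, 218 and 325 CPM in Mrc1-high cells, and was higher in all 4 libraries (0.88, SE 0.11, edgeR adjusted p = 0.000801). Hilpda (0.70), Ddit4 (0.61), Ndrg1 (0.61), Pfkfb3 (0.41), Bnip3l (0.39) and Adm (1.65) were the other members above, and Fam162a (−0.43, adjusted p = 0.0491) was below. None of the 13 glycolytic enzymes passed (2 were higher and 0 lower at an unadjusted p under 0.05, and DESeq2 called 5 members in all, each higher). With subsets taken from whole clusters, cluster 6 stood for Gpnmb-high cells and clusters 4 and 5 together for Mrc1-high cells, all described below. The comparison then turned round: 31 members were lower in cluster 6, 0 were higher, and the median was −1.01. The share of all genes called in that fit is not reported here. Leaving out any 1 library left 1 to 4 members called.

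Adm was the only member whose genotype difference was called unequal between the subsets, where 1.28% of all genes were called, 0.497% with a larger and 0.781% with a smaller difference in Gpnmb-high cells. It stood at 3.27, 4.26, 73.6 and 117 CPM in Gpnmb-high and at 0.986, 7.43, 17.9 and 31.2 CPM in Mrc1-high cells. The log2 difference between the 2 fold changes was 2.24 (SE 0.50, edgeR adjusted p = 0.0383). In wtIDH1 it rests on 10 and 11 UMIs in Gpnmb-high cells and on 2 and 32 UMIs in Mrc1-high cells. DESeq2 called 0 members in this comparison, as did edgeR without wtIDH1 replicate 2, with library totals alone, or without the few barcodes that libraries shared.

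The macrophage-like gate was filled by different clusters in the 2 genotypes. Clustering without the members put 5.35% and 4.34% of wtIDH1 macrophage-like cells in cluster 4, led by Ccl24, Ccl7, Pf4, Arg1 and Mrc1, and 43.7% and 48.5% of mIDH1 cells. Cluster 6, led by Gpnmb, Adamdec1, Apoe and Hmox1, held 39.8% and 46.4% of the wtIDH1 cells and 12.5% and 10.7% of the mIDH1 cells. Cluster 5, led by Adamdec1, Gpx3 and Igf1, held 25.8%, 31.4%, 19.6% and 17.0%. Gpnmb-high cells followed the same shift, with 72.1% and 85.9% in cluster 6 in wtIDH1 and 41.9% and 48.4% in cluster 4 in mIDH1. Mrc1-high cells lay in cluster 4 to 18.4% and 8.54% in wtIDH1 and to 79.6% and 80.9% in mIDH1.

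Cluster 4 was rich in these transcripts whatever the genotype. The members took 2.05% and 1.94% of its UMIs in wtIDH1 and 2.19% and 2.55% in mIDH1, whereas in cluster 6 they took 1.10%, 0.894%, 1.21% and 1.04%. Hilpda stood at 409, 308, 539 and 814 CPM in cluster 4 and at 74.6, 76.8, 108 and 89.7 CPM in cluster 6. The wtIDH1 cells of cluster 4 thus had more Hilpda than the mIDH1 cells of cluster 6.

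Within those clusters no member passed the test between genotypes. In cluster 4 edgeR called 0 of 34 tested members and 0% of 9020 genes, with 6 members higher and 0 lower at an unadjusted p under 0.05 and a median log2 fold change of 0.41. In cluster 6 it called 0 of 34 members and 0.977% of 9926 genes, with 10 higher and 0 lower unadjusted and a median of 0.43. DESeq2 was not run within clusters. Hilpda had a log2 fold change of 1.12 (SE 0.30, edgeR adjusted p = 0.177) in cluster 4 and of 0.65 (SE 0.18, adjusted p = 0.12) in cluster 6, against 2.63 over all macrophage-like cells. A p that misses the threshold does not show that the genotypes were equal there. In wtIDH1 cluster 4 had 149 cells, and in mIDH1 cluster 6 had 141.

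Clusters 5 and 0 differed from that. In cluster 5, whose cells held medians of 824 to 1076 UMIs, 18 of 32 tested members rose and 0 fell, where 7.66% of 4502 genes rose (median 1.07, 0 lower and 25 higher unadjusted). The members took 1.10% and 1.13% of UMIs there in wtIDH1 and 2.25% and 1.98% in mIDH1. In the monocyte cluster 0, led by Ly6c2, Plac8 and Ccr2, 13 of 33 rose and 0 fell, where 4.75% of 9356 genes rose (median 0.67, 0 lower and 23 higher unadjusted), and the shares were 1.17%, 1.08%, 1.58% and 1.62%. These cluster fits were added after the data had been seen.

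**Figure D3:**
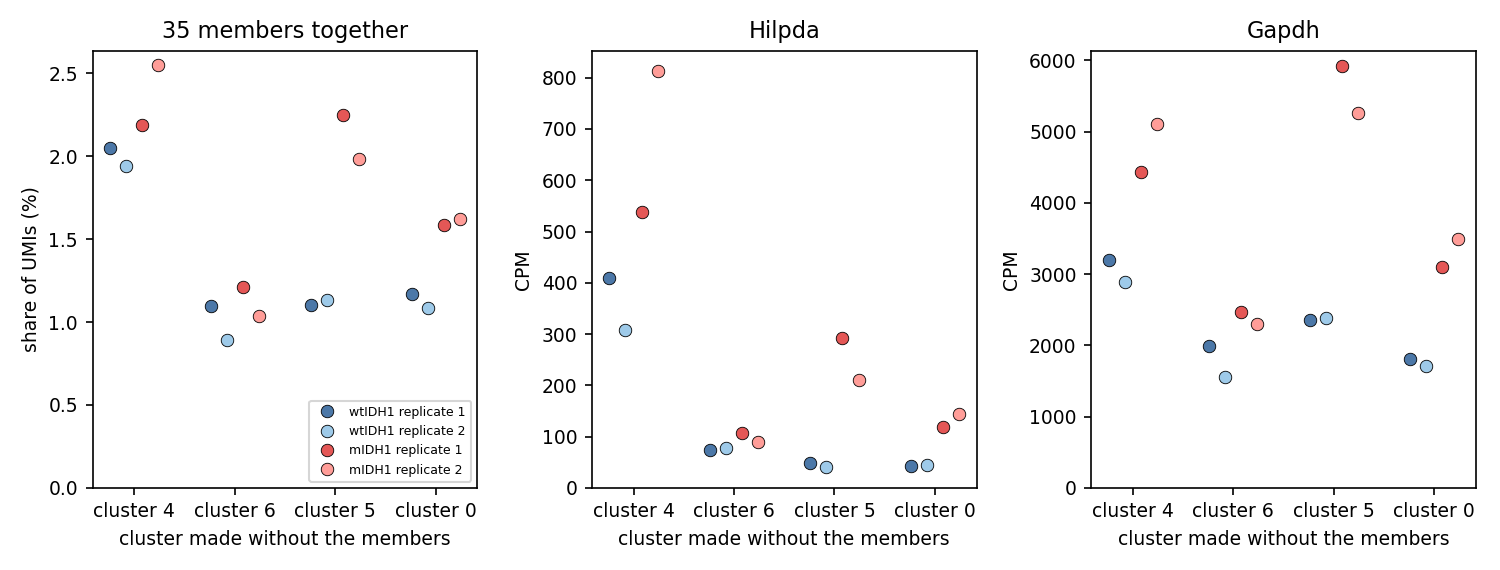
Share of UMIs of the 35 members in percent, and Hilpda and Gapdh in CPM, in clusters 4, 6, 5 and 0; each point is 1 library. Cluster 4 is high in both genotypes (1.94% to 2.55% of UMIs), cluster 6 is low in both (0.894% to 1.21%), and in clusters 5 and 0 wtIDH1 lies between 1.08% and 1.17% and mIDH1 between 1.58% and 2.25%.

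Other measures moved with the genotype in macrophage-like cells. The 12 neutrophil markers summed to 520 and 476 CPM in wtIDH1 and to 1623 and 3053 CPM in mIDH1, with Camp at 0 in wtIDH1 replicate 1. The neutrophil RNA so estimated was 0.977%, 0.88%, 2.62% and 2.24% of UMIs, and with it subtracted 28 members still rose and 0 fell. The 7 tumour or glial markers summed to at most 11.7 CPM, with Olig1 and Olig2 at 0 in every library. The 5 dissociation or stress genes summed to 1481, 1214, 1460 and 1742 CPM and did not separate the genotypes.

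Monocyte-like cells showed a narrower rise. Of 34 tested members (all but Car9) 17 rose and 0 fell, where 8.5% of 9490 genes rose and 4.05% fell (12.6% in either direction), and the median log2 fold change was 0.66. Hilpda stood at 50.8, 51.7, 225 and 302 CPM (2.63, SE 0.23, edgeR adjusted p = 0.000165), Ndrg1 at 80.2, 59.3, 231 and 168 CPM (1.75, SE 0.22, adjusted p = 0.0011) and Eno1 at 367, 351, 724 and 908 CPM (1.46, SE 0.23, adjusted p = 0.00365). All 3 genes were apart between genotypes, as were 27 members in all with mIDH1 higher (16.9% of all genes) and 3 with mIDH1 lower (48.6% of all genes). Of the enzymes 8 of 13 rose, of the other targets 7 of 13 tested.

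Pgk1 (0.42), Bnip3l (0.24), Vegfa (0.22), P4ha1 (0.01) and Hif1a (−0.12) were among the members that did not pass in monocyte-like cells. Pfkfb4 was the only member in the 8 classes tested that was lower at an unadjusted p under 0.05, at 87.8, 65.3, 49.3 and 44.2 CPM (−0.47, edgeR adjusted p = 0.161). DESeq2 called 19 members higher and 0 lower. In mIDH1 27.3% and 29.8% of the class lay in cluster 4, against 2.72% and 5.88% in wtIDH1. Without mIDH1 replicate 2 only 1 member was called, without either wtIDH1 library 10, and with classes from clusters 9. Against macrophage-like cells the genotype difference was smaller in Ankrd37 (−1.06) and Pfkfb4 (−1.07), where 0.979% of all genes were called.

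Neutrophil-like cells were few in wtIDH1, and 2 of 33 tested members rose, where 0.191% of 6790 genes rose and 0.133% fell (0.324% in either direction); Adm and Car9 were not tested. Hilpda stood at 317 and 267 CPM in wtIDH1 and 955 and 1143 CPM in mIDH1 (2.31, SE 0.35, edgeR adjusted p = 0.0362). Hk2, on chromosome 6 from 82725025 to 82774454 (mm10, minus strand), stood at 693 and 603 CPM against 1744 and 1488 CPM (1.75, SE 0.31, edgeR adjusted p = 0.0448). Both genes were well apart between genotypes. Of the 33 members, 19 had both mIDH1 libraries higher (11.1% of all genes) and 5 had both lower (40.7% of all genes).

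At an unadjusted p under 0.05, 20 of the 33 were higher and 0 lower in neutrophil-like cells, 11 of them enzymes, and DESeq2 called 10 higher and 0 lower. The shares of all genes that passed in these ways are not reported here, so the counts are not set against them. The members' median log2 fold change was 0.86. Slc2a1 at 190, 279, 513 and 493 CPM (1.54, edgeR adjusted p = 0.0624), Fam162a at 87.8, 67.8, 172 and 245 CPM (1.92, 0.0624) and Eno1 at 371, 294, 592 and 609 CPM (1.31, 0.0784) came next. Ndrg1 (−0.09), Vegfa (−0.52) and Pfkfb4 (−0.57) were the only members with negative values, and Ndrg1 and Vegfa changed sign under some settings.

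RNA of other cells was a larger part of the neutrophil-like sums in wtIDH1, estimated from the complement genes C1qa, C1qb and C1qc at 33.0% and 21.7% of UMIs against 14.0% and 5.71% in mIDH1. With it subtracted 0 members passed, Hilpda at 2.06 (edgeR adjusted p = 0.0575) and Hk2 at 1.63 (adjusted p = 0.0637), and the median was 0.87. Without wtIDH1 replicate 2 the call of both genes was lost, and without wtIDH1 replicate 1 that of Hk2. Leaving out each library in turn gave medians of the members' log2 fold changes from 0.75 to 0.93.

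The clusters of neutrophil-like cells were also unevenly filled. Cluster 7 held 23, 26, 409 and 750 of them, cluster 8 held 54, 110, 297 and 299, and cluster 9 held 20, 22, 193 and 630. The part of these shifts in the difference of Hilpda and Hk2 was not tested.

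Compared within libraries, most genes had different levels in neutrophil-like and macrophage-like cells, so a difference was not particular to the members. In this comparison, added after the data had been seen, 18 of the 35 members were higher in neutrophil-like cells and 6 lower. Of all 10811 genes 26.4% were higher and 31.4% lower (6255 genes in either direction). The hydroxylase Egln3 (log2 difference 2.19), the flux regulators Pfkfb4 (1.98) and Pfkfb3 (1.65), Hilpda (1.80) and Ddit4 (1.65) were among those higher, as were Hk2 and Pfkp. Gapdh (−0.58), Gpi1 (−0.53), Egln1 (−1.18), Ndrg1 (−0.65) and Adm (−1.53) were lower, as was Car9, which had 0 UMIs in neutrophil-like cells.

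The genotype difference itself was called unequal between these classes in 4 members, 1 higher and 3 lower in neutrophil-like cells, where 1.69% of genes were called (0.934% higher and 0.758% lower) and the median of all genes was 0.32. Hk2 had the larger difference in neutrophil-like cells (1.27, edgeR adjusted p = 0.0165). Egln3 (−1.43, adjusted p = 0.00233), Ndrg1 (−2.39, adjusted p = 1.56e-06) and Adm (−3.85, adjusted p = 0.00384) had the larger difference in macrophage-like cells. Egln3 was already at 283 and 403 CPM in wtIDH1 neutrophil-like cells and at 421 and 343 CPM in mIDH1, so its genotypes overlapped. Adm rests on 0, 7, 14 and 20 UMIs there. Scaled by library totals alone, 0 members were higher and 6 lower, DESeq2 called 3 lower and 0 higher, and without wtIDH1 replicate 2 edgeR called 0. With other cells' RNA subtracted 1 member was called, and without mIDH1 replicate 2 it was 2.

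Microglia-like cells, the resident macrophages of brain, had 2 of 33 members higher and 0 lower, where 1.76% of 7748 genes rose and 0.258% fell (2.01% in either direction); Adm and Car9 were not tested. Hilpda stood at 36.4, 21.8, 180 and 139 CPM (2.75, SE 0.36, edgeR adjusted p = 4.6e-05) and Eno1 at 185, 176, 264 and 543 CPM (1.36, SE 0.35, adjusted p = 0.0474). Both were apart between genotypes, as were 14 members in all with mIDH1 higher (13.9% of all genes) and 3 with mIDH1 lower (34.7% of all genes), while Gapdh (0.70), Ldha (0.68) and Slc2a1 (1.08) did not pass. At an unadjusted p under 0.05, 12 members were higher and 0 lower, and DESeq2 called 2 higher and 0 lower. Neutrophil markers in microglia-like sums were 384, 517, 3290 and 8588 CPM, and with their RNA subtracted 1 member was called. Against macrophage-like cells edgeR called 0 members unequal (16 lower and 0 higher unadjusted, DESeq2 not run), where 0.886% of all genes were called.

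In T cell-like cells Eno1 and Fam162a were the 2 of 32 tested members that rose and 0 fell (12 higher and 0 lower unadjusted, DESeq2 4 and 0), where 3.7% of 9655 genes rose and 0.891% fell (4.59% in either direction), a share near that of the members. Pfkfb4, Adm and Car9 were not tested. The genotypes did not overlap, with mIDH1 higher, for 10 members (16% of all genes) and, with mIDH1 lower, for 9 (47.8% of all genes). Eno1 stood at 257, 176, 439 and 430 CPM (1.26, SE 0.21, edgeR adjusted p = 0.0195). Without either wtIDH1 library edgeR called 0. Against macrophage-like cells 15 members had a smaller genotype difference and 0 a larger one, where 1.28% of genes were smaller. Of these, Ankrd37 (−2.45), Ndrg1 (−2.04), Egln3 (−2.02), Ero1l (−1.83) and Hilpda (−1.80) were the furthest apart. This and the other contrasts of 2 classes' genotype differences, except that of neutrophil-like cells, were added after the data had been seen.

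In NK cell-like cells 6 of 28 tested members rose and 0 fell (13 higher and 0 lower unadjusted, DESeq2 2 and 0), where 4.65% of 6430 genes rose and 1.1% fell (5.75% in either direction). They were Eno1, Gapdh, Aldoa, Pkm, Fam162a and Mif. Gapdh stood at 307, 470, 640 and 988 CPM (1.32, SE 0.24, edgeR adjusted p = 0.0012) and Eno1 at 144, 172, 298 and 311 CPM (1.18, SE 0.21, adjusted p = 0.00108). The genotypes did not overlap for either enzyme, nor for 13 members in all with mIDH1 higher (14.9% of all genes) and 3 with mIDH1 lower (39.5% of all genes). Slc16a3, Pfkfb3, Pfkfb4, Egln3, Ankrd37, Adm and Car9 were too low to test. Without wtIDH1 replicate 1, or with at most 5% mitochondrial UMIs, edgeR called 0. Against macrophage-like cells 6 members had a smaller genotype difference and 0 a larger one, where 0.92% of genes were smaller, Ndrg1 (−2.18) and Ero1l (−1.66) being the furthest.

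**Figure D4:**
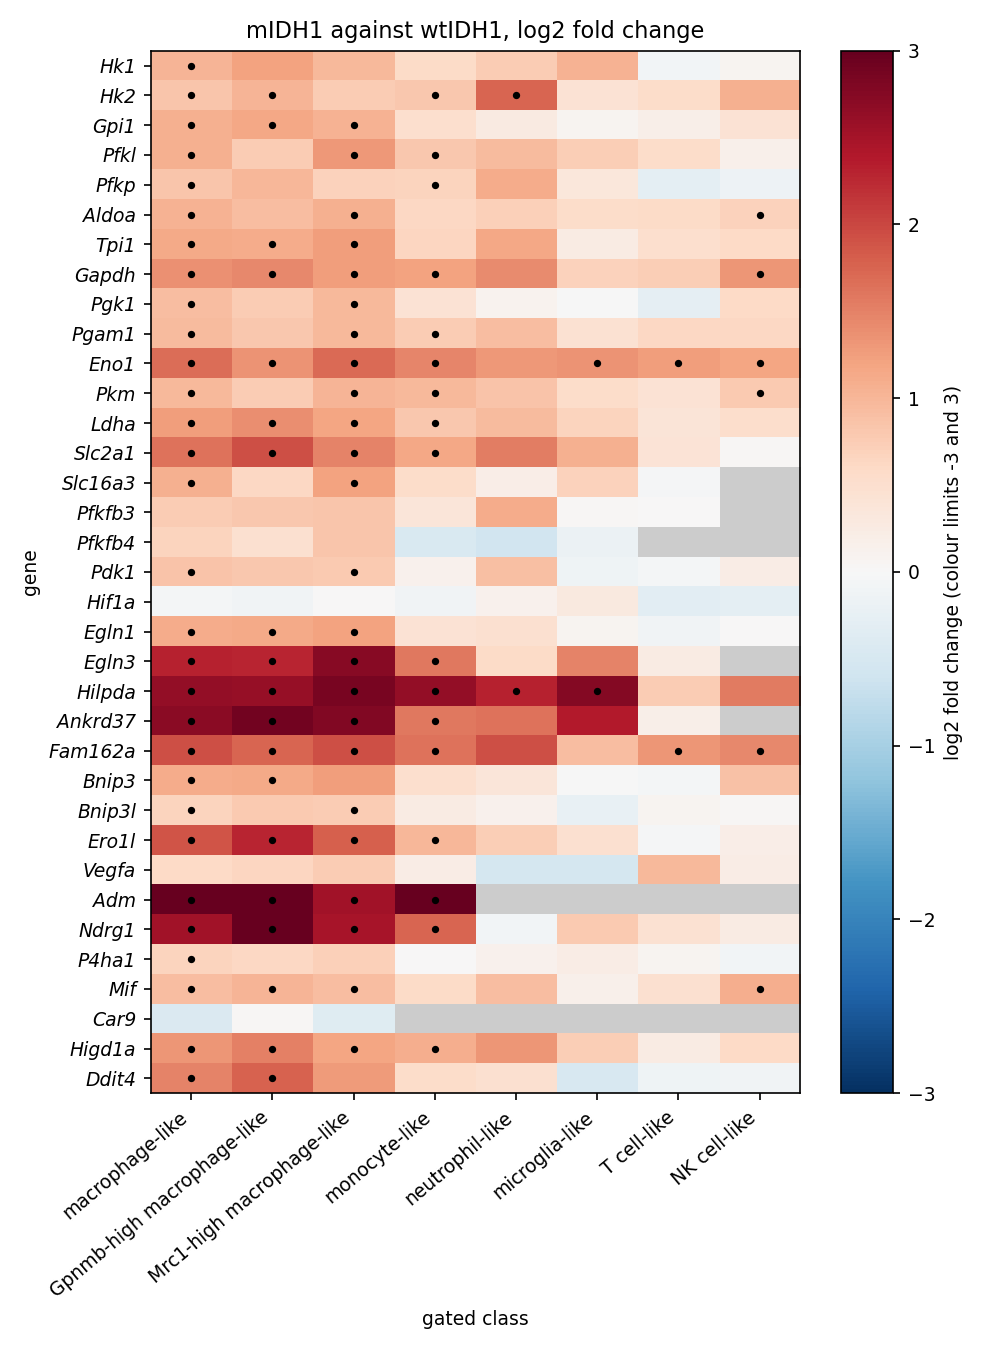
Log2 fold changes, mIDH1 against wtIDH1, of the 35 members in 8 classes by role; dots mark an adjusted p under 0.05 and grey cells were not tested. The macrophage-like column has 30 dots, the neutrophil-like and microglia-like columns 2 each.

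To describe single cells and set depth aside, every cell with at least 1000 UMIs was thinned to 1000, which left 11795 cells. Hilpda was then read in 6.89% and 5.84% of wtIDH1 macrophage-like cells (95% exact binomial intervals 4.95 to 9.30% and 4.31 to 7.71%) and in 29.6% and 34.5% of mIDH1 cells (26.0 to 33.5% and 29.4 to 39.9%). Without thinning the shares were 26.0%, 25.7%, 57.4% and 54.8%. Thinning left out 125, 157, 138 and 61 shallower macrophage-like cells. In NK cell-like cells, the lowest of the tested classes, thinned Hilpda shares were 1.15%, 0%, 0% and 1.48% (upper bounds of the exact intervals 3.33%, 2.28%, 3.93% and 5.25%), at median depths of 2781, 2543, 3715 and 3543.5 UMIs. In T cell-like cells they were 1.62%, 2.17%, 3.03% and 6.36%, at median depths of 4108, 4075, 5713.5 and 5197.5 UMIs against 6790, 7321, 6713 and 7599.5 UMIs in macrophage-like cells. The wtIDH1 shares of macrophage-like cells were a few points above both lymphocyte classes and those of mIDH1 far above. How much of the lymphocyte shares is free RNA was not tested. The intervals cover counting error only.

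Thinned shares of neutrophil-like cells with Hilpda were 18.1%, 11.3%, 37.3% and 37.4% (22.2%, 17.1%, 47.2% and 47.1% unthinned, 5, 17, 61 and 84 cells left out), above the T cell-like shares in every library. Egln3 was read in 21.3%, 20.6%, 29.6% and 25.4% of thinned neutrophil-like cells and in 5.83%, 4.32%, 17.6% and 15.6% of macrophage-like cells. Its unthinned shares were 34.3%, 29.1%, 42.4% and 41.0% in the former and 23.0%, 14.8%, 47.2% and 44.9% in the latter.

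Thinned macrophage-like cells with a Hilpda UMI were then set against cells of the same library without one. A ratio of mean UMIs was taken where the gene's total let at least 3 UMIs be expected in each set of cells at equal levels, in 3 or more libraries. Of the 24 members with such a ratio, 22 had a median above 1 and 19 (79.2%) were above 1 in each of those libraries. Of all 2621 genes with such a ratio, 40.9% had a median above 1 and 11% were above 1 in each. The ratio was 3.02 for Ndrg1 (2.11 to 6.97 over 3 libraries), 2.86 for Ero1l and 2.63 for Slc2a1. Vegfa, which did not pass the test between genotypes, had 2.56 and was above 2 in all 4 libraries (2.14 to 3.93). The medians below 1 were those of Hif1a (0.914) and P4ha1 (0.859). The other 10 members, Egln3 and Adm among them, were too low in 2 or more libraries for this comparison.

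In neutrophil-like cells 23 members had such a ratio, all 23 with a median above 1 and 19 (82.6%) above 1 in each library that gave one. Of all 1101 genes, 38% had a median above 1 and 18.3% were above 1 in each. Ero1l had 3.90, Bnip3 3.65, Higd1a 3.25 and Ldha 2.91, while Hif1a had 1.14. Eno1 ranged from 0.422 to 3.93 over the libraries. P4ha1, with a median below 1 in macrophage-like cells, had 3.12 (2.25 to 8.05). These ratios describe cells of the same library, which share its RNA background, and carry no test. The minimum for a ratio and the values over all genes were added after the data had been seen.

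**Figure D5:**
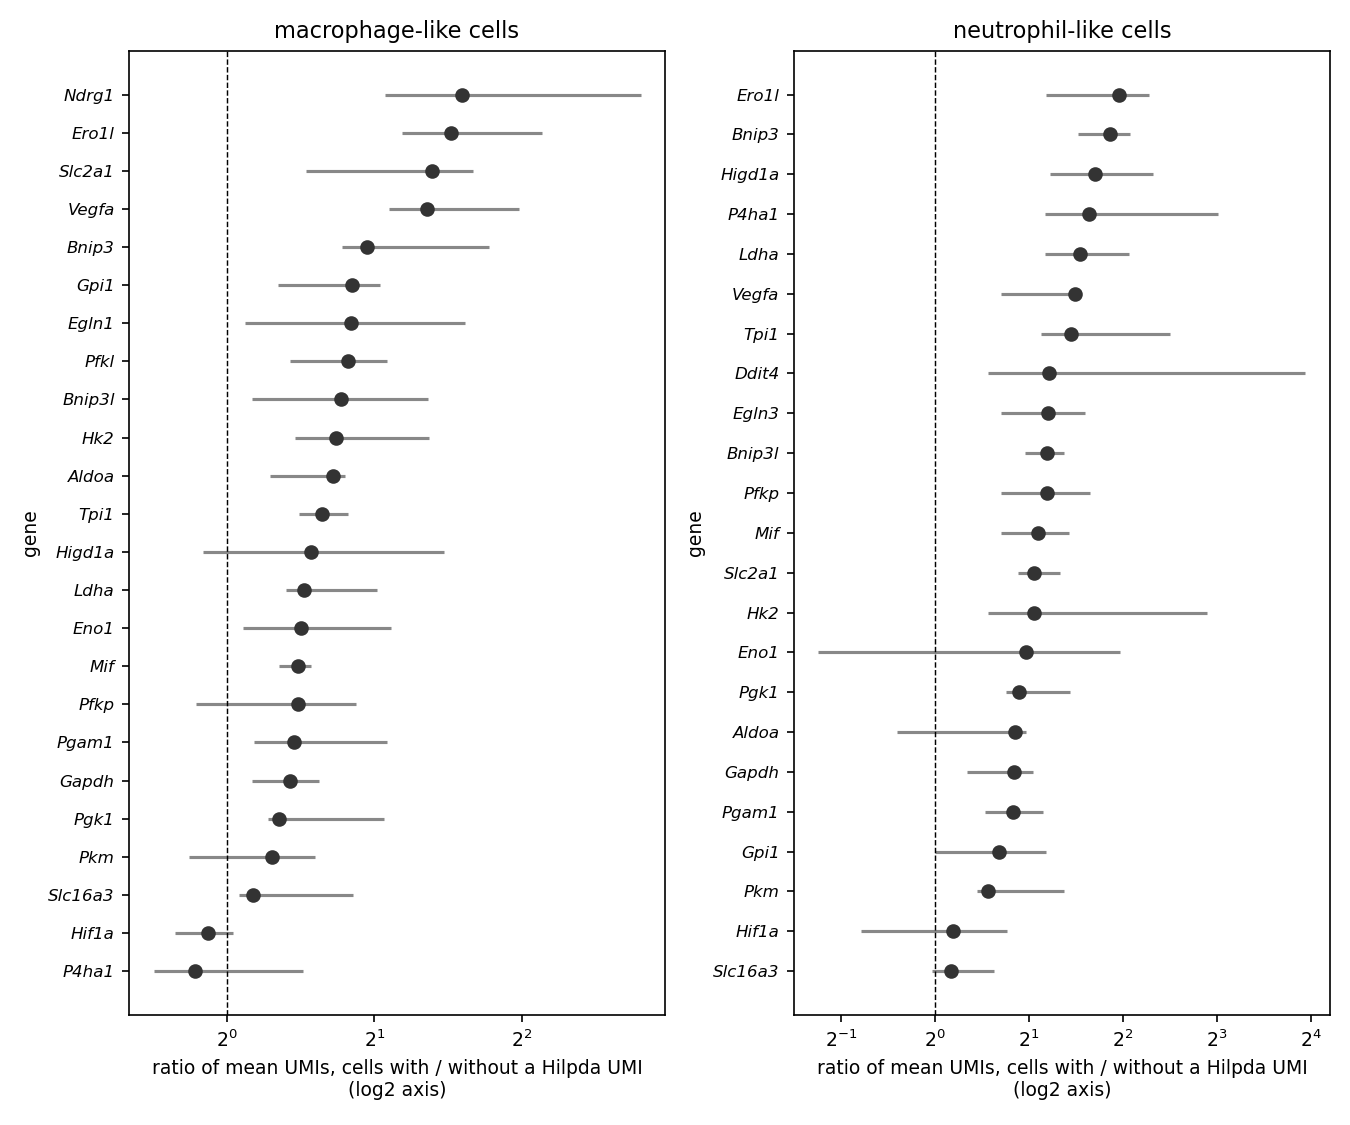
Ratio of mean UMIs in cells with a Hilpda UMI to cells without, at 1000 UMIs a cell, for members with a ratio in 3 or more libraries; points are medians over libraries and lines their range. In macrophage-like cells Ndrg1 (3.02) and Ero1l (2.86) lie highest and P4ha1 (0.859) lowest.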

How the data were processed

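Each library is 1 matrix of UMI counts per gene and barcode. Counts were made by the authors in Cell Ranger 3.1 (STAR, mm10), per the labels' protocols. The software named in the deposited matrices is 3.0.0, per the file headers. The protocols also describe an aggregation to equal depth, while the deposited counts are separate matrices of unequal depth.

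Cells with under 200 genes or over 10% mitochondrial UMIs were left out. Scrublet's automatic threshold called at most 0.098% doublets in a library, so the highest scores were removed instead (0.8% per 1000 barcodes; 90 to 142 cells). Each cell was given the class with the highest mean marker level among 15 classes (score at least 0.2, lead at least 0.05, at least 3 markers read; 435 cells had a lead under double that), a scoring rule set after seeing the files. A cell was called microglia-like where its microglia score was at least 0.5 times its macrophage score. A cell between monocyte and macrophage with 2 or more UMIs of Gpnmb or Mrc1 went to the macrophage class (311 cells were moved). Leiden clustering without the members (2000 variable genes, 30 components, 15 neighbours, resolution 1.0; scanpy 1.11.5, igraph 0.11.9, Python 3.11.15) gave 20 clusters.

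UMIs were summed per library and class, for classes with at least 30 cells in every library. Tests were made in edgeR 4.0.16 under R 4.3.3 (trimmed-mean scaling, default filter on low counts, threshold 0.05); comparisons of classes had the library as a block. The tests were tested on simulated data with the same spread for every gene and class, a fixed value not estimated from these libraries. The shares found hold for that spread only. Of 2-fold changes 26.9% were found in macrophage-like and 14.9% in neutrophil-like sums, and of 4-fold changes 90.9% and 53.0%. For genotype by class, neutrophil-like against macrophage-like, 16.7% of 4-fold changes were found. The members, the list of 61 further genes and the markers were chosen with earlier results of these data known. Every member may be named; of the further genes, up to 5 per direction with the lowest p among those that passed, of which 1 is not reported here. Alternatives were DESeq2 1.42.0, library totals, no filter on low counts, a replicate block, at most 5% mitochondrial UMIs, classes from clusters, subtraction of other cells' RNA, and leaving out each library or the shared barcodes. A crossed replicate block was added in some classes after the data had been seen.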

Additional observations from a re-analysis of the deposited data

Results flagged for a closer look

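The genotype difference (log2 fold change, mIDH1 against wtIDH1) differed between classes or subsets for the following members, each by a term for that difference in edgeR with the library as a block and an adjusted p under 0.05. No explanation was tested.

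Between the macrophage subsets it was 2.24 larger in Gpnmb-high than in Mrc1-high cells for Adm. Between neutrophil-like and macrophage-like cells it was 1.27 for Hk2, −1.43 for Egln3, −2.39 for Ndrg1 and −3.85 for Adm, where a negative value is a smaller difference in the class named first and Adm rests on few UMIs.

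Between T cell-like and macrophage-like cells, a comparison added after the data had been seen, the enzymes gave −1.07 for Hk1, −0.87 for Gpi1, −1.09 for Pfkp, −1.17 for Pgk1 and −0.85 for Ldha. The transporters gave −1.14 for Slc2a1 and −1.10 for Slc16a3, and the hydroxylases −1.18 for Egln1 and −2.02 for Egln3. The other targets gave −1.80 for Hilpda, −2.45 for Ankrd37, −1.83 for Ero1l, −1.03 for Higd1a, −1.51 for Ddit4 and −2.04 for Ndrg1.

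Between NK cell-like and macrophage-like cells, also added, the values were −0.95 for Pfkp, −1.55 for Slc2a1, −1.07 for Egln1, −1.66 for Ero1l, −1.54 for Ddit4 and −2.18 for Ndrg1. Between monocyte-like and macrophage-like cells, also added, they were −1.06 for Ankrd37 and −1.07 for Pfkfb4.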

How the results depend on the processing

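The counts of called members are given by class. The share of all genes called in these alternative fits is not reported here, so a changed count is no result about the members alone. Leaving out each library in turn gave 5 to 33 in macrophage-like, 5 to 24 in Gpnmb-high, 6 to 28 in Mrc1-high, 1 to 15 in monocyte-like, 0 to 17 in neutrophil-like, 1 to 3 in microglia-like, 0 to 11 in T cell-like and 0 to 13 in NK cell-like cells; between subsets 1 to 4, for genotype by subset 0 to 3, and for genotype by class (neutrophil-like against macrophage-like) 0 to 4. In macrophage-like cells the 30 called members kept their direction under every alternative run; 21 to 33 were called in all but the fit without mIDH1 replicate 2, which called 5.

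DESeq2 called 10 in neutrophil-like, 4 in T cell-like and 2 in NK cell-like cells, 5 between subsets and 0 for genotype by subset. Library totals gave 11 in Gpnmb-high, 15 in Mrc1-high, 5 in neutrophil-like and 1 in microglia-like cells, 3 between subsets and 0 for genotype by subset; they moved the median of all genes by −0.20 to −0.42 in the 8 classes. No filter gave 13 in neutrophil-like, 4 in microglia-like and 5 in T cell-like cells. At most 5% mitochondrial UMIs gave 1 in microglia-like, 5 in T cell-like and 0 in NK cell-like cells, 5 between subsets and 0 for genotype by subset. Classes from clusters gave 0 in Gpnmb-high, 6 in Mrc1-high, 9 in monocyte-like, 4 in neutrophil-like, 4 in microglia-like and 3 in NK cell-like cells and 0 for genotype by subset, and reversed the comparison of subsets (31). Subtracted RNA gave 0 in neutrophil-like and 1 in microglia-like cells, 0 for genotype by subset and 1 for genotype by class. Without shared barcodes genotype by subset gave 0. The causes were not tested.

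The replicate block gave 32 in macrophage-like, 6 in Gpnmb-high, 11 in neutrophil-like and 5 in T cell-like cells. Libraries of the same number did not deviate together (correlations −0.23 to 0.05), so the number does not pair them. The crossed replicate block gave 33 in macrophage-like, 29 in Gpnmb-high and 4 in microglia-like cells.

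Single genes were followed through the alternatives in macrophage-like and neutrophil-like cells only. None of those that changed sign was called. In neutrophil-like cells, under library totals the log2 fold changes were −0.18 for Gpi1, −0.31 for Pgk1, −0.24 for Slc16a3, −0.29 for Hif1a, −0.056 for Bnip3, −0.32 for Bnip3l and −0.28 for P4ha1. With other cells' RNA subtracted they were −0.015 for Slc16a3, −0.044 for Bnip3l and −0.0087 for P4ha1. At most 5% mitochondrial UMIs gave −0.028 for Pgk1 and 0.17 for Ndrg1, no filter 0.055 for Ndrg1 and classes from clusters 0.020 for Ndrg1. Leaving out each library gave −0.042 to 0.52 for Slc16a3, −0.025 to 0.36 for Bnip3l, −0.98 to 0.20 for Vegfa, −0.38 to 0.29 for Ndrg1 and −0.032 to 1.26 for Ddit4. In macrophage-like cells Hif1a was 0.11 with classes from clusters.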

Other observations

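Cells that no gate named also carried these transcripts. Cluster 16, led by Rhox5, Tm4sf1, Hmga2, Cald1 and Krt18 and left unnamed, held 25, 36, 126 and 101 cells, and the 35 members took 1.19%, 1.32%, 1.42% and 1.47% of its UMIs. All cells that were assigned to no class gave 1.05%, 1.20%, 1.46% and 1.53%. In the unnamed cluster 11, led by haemoglobin genes and Apod, the shares were 1.06%, 1.22%, 1.15% and 0.967%, and the genotypes overlapped.

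The summed UMIs of the 14 other hypoxia targets were also followed over thinned cells. In neutrophil-like cells 30.9%, 31.2%, 18.5% and 26.4% held no UMI of them, against 19.6%, 22.0%, 6.53% and 9.61% of macrophage-like cells. The variance over the mean of this sum was 7.68, 4.08, 5.98 and 6.68 in neutrophil-like cells, 3.44, 2.80 and 3.98 in macrophage-like cells of the first 3 libraries with a higher value in mIDH1 replicate 2, and 1.46, 1.34, 1.30 and 1.17 in T cell-like cells. In Gpnmb-high cells it was 4.30, 2.24, 5.02 and 6.31. The means of the sum were 3.15, 2.18, 4.25 and 3.90 in neutrophil-like and 2.63, 2.09, 4.94 and 4.95 in macrophage-like cells. T cell-like cells had means of 1.02, 1.08, 1.09 and 1.18. The ratio was not corrected for the mean, so it does not by itself compare how even the classes were.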
